A study of Mus musculus with 31 samples.

Results

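The genes described are 10 mouse genes for cytosolic and mitochondrial heat shock proteins and their partners, among the 31172 gene symbols measured in each of 31 livers. They were taken by symbol, *Hsp90ab1*, *Hsp90aa1*, *Hspa8*, *Hspa1a*, *Hspa1b*, *Dnaja1*, *Dnajb1*, *Hsph1*, *Hspd1* and *Hspe1*, and all 10 were listed in all 31 mice. The list was chosen by the role of the genes with their TPM in the 5 groups already known. The differences of these 10 genes between groups are therefore given as descriptions, and no p-value is printed for them. The number of them past a threshold on the adjusted p is printed beside the share or the number of all genes past it. Nothing is read from that number. All mice carried a human factor IX (FIX) minigene with the nonsense change R29X, driven by a human transthyretin promoter that is active mainly in hepatocytes, and lacked the mouse gene for FIX, which makes them a model of hemophilia B. At 8 to 14 weeks of age they were given 6 subcutaneous doses of DPBS (11 mice, 6 female and 5 male), Control-GalNAc-ASO at 15 mg/kg (4 mice, 2 female and 2 male) or 20 mg/kg (6 mice, 3 female and 3 male), or *Upf3b*-GalNAc-ASO at 10 mg/kg (5 mice, 2 female and 3 male) or 20 mg/kg (5 mice, 2 female and 3 male), and liver was collected 48 h after dosing ended. *Upf3b* encodes a factor of nonsense-mediated mRNA decay (NMD), GalNAc is a sugar ligand for the asialoglycoprotein receptor of hepatocytes, and the control oligonucleotide is a scrambled sequence. The lower dose of *Upf3b*-GalNAc-ASO has no control at the same dose, so the sequence and the dose of the oligonucleotide cannot be told apart in its comparison with Control-GalNAc-ASO at 15 mg/kg.

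Heat shock proteins are molecular chaperones. In the cytosol, J-domain proteins (*Dnaja1*, *Dnajb1*) hand unfolded clients to the HSP70 proteins (*Hspa8*, *Hspa1a*, *Hspa1b*) and stimulate their ATPase, the HSP110 protein encoded by *Hsph1* exchanges their nucleotide, and the HSP90 proteins (*Hsp90aa1*, *Hsp90ab1*) take over clients such as kinases and steroid hormone receptors. In mitochondria, HSP60 (*Hspd1*) forms a folding chamber that HSP10 (*Hspe1*) closes. Under heat or proteotoxic stress the transcription factor HSF1 binds heat shock elements, inverted repeats of GAA, and induces the genes, whereas *Hspa8*, *Hsp90ab1*, *Hspd1* and *Hspe1* are also made without stress. The inducible genes *Hspa1a* and *Hspa1b* are used as reporters of that response in liver.

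Windows from 250 bases before to 50 bases after a transcript start were found in RefSeq (GRCm38.p6) for 7 of the 10 genes, and *Hsp90ab1*, *Hsp90aa1* and *Hspa8* are named only. They were searched on both strands for the 8-base inverted repeats GAANNTTC and TTCNNGAA, and for the 13-base runs GAANNTTCNNGAA and TTCNNGAANNTTC, which hold both of these and are each other's reverse complement. Of all 32851 windows in the table, 7.86% held GAANNTTC, 8.52% TTCNNGAA, 0.31% GAANNTTCNNGAA and 0.32% TTCNNGAANNTTC. Counted by gene, with 1 or more windows each, 179 of 27025 symbols (0.662%) held either 13-base run and 4587 either 8-base repeat. A 13-base run was found for 3 of the 7 genes (*Hspd1* and *Hspe1*, in the same stretch, and *Hsph1*), an 8-base repeat for these and for *Dnaja1*, *Hspa1a* and *Hspa1b*, and none for *Dnajb1*. A match is a description of the letters and not a site. The following stretches are shown because they hold the repeats, in capitals, of genes whose levels the results turn on. *Hspd1* and *Hspe1* lie on opposite strands and overlap at their 5′ ends, with annotated starts 111 bases apart, and the windows of both hold the first stretch (chr1:55088053-55088082, plus strand, before the exons of *Hspe1* and within an *Hspd1* exon). The others are from an exon of *Hsph1* (chr5:149636280-149636308, minus strand) and an exon of *Dnaja1* (chr4:40722333-40722362, plus strand).
Hspd1 and Hspe1: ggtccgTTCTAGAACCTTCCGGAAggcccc
Hsph1: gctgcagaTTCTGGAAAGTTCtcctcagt
Dnaja1: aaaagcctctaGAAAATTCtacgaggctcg

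*Hspa1a* (chr17:34969190-34972156, minus strand) and *Hspa1b* (chr17:34956436-34959238, minus strand) are neighbouring copies, with 9951 bases between them. Their coding sequences were identical at 1915 of 1923 aligned bases (99.6%), so reads from the coding part cannot be told apart with certainty and the split between these genes is uncertain. Their 3′ untranslated regions were less alike (72.8% of 566 aligned bases). The 250 bases upstream of each start are shown because the genes also share nearly all of it, including a GAA repeat (capitals) 104 bases before the start. The upstream stretches lie at chr17:34972157-34972406 for *Hspa1a* and chr17:34959239-34959488 for *Hspa1b*.
Hspa1a: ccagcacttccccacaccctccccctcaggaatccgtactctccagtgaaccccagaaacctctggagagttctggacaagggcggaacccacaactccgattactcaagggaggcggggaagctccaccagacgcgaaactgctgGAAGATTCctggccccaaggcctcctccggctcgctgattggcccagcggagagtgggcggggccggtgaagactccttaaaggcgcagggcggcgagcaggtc
Hspa1b: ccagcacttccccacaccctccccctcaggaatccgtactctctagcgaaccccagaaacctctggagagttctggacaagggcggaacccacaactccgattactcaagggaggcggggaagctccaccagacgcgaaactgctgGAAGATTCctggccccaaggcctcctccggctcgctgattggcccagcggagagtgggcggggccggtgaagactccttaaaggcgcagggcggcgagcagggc
Counted from 1 at the 5′ end of these stretches and with the *Hspa1a* base first, they differ by C44T, T47C and T249G.

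The deposited values are in TPM, and the value of 1 read was the same for short and long genes, so the values were not divided by length and levels are compared here within a gene and not between genes. No read numbers came with the values, so they were inferred as the summed TPM over the value of 1 read. Mice had 1012526 to 7334110 such reads (median 3597929), and 3 of them, taken as the floor of detection, were worth 0.406 to 2.94 TPM. The study's methods give a higher average depth, and the reason for the gap was not tested. All read numbers and limits on reads used here are on this inferred scale. The floor covers counting error only. The 10 genes together held 0.448% to 1.80% of all TPM in a mouse (median 0.879%). *Upf3b* was at 97.3 ± 33.2 TPM (SD, n = 11) with DPBS, 57.8 ± 22.1 (n = 4) and 111 ± 21.8 (n = 6) with Control-GalNAc-ASO at 15 and 20 mg/kg, and 21.5 ± 20.0 (n = 5) and 7.80 ± 5.82 (n = 5) with *Upf3b*-GalNAc-ASO at 10 and 20 mg/kg. All 6 hepatocyte markers were expressed, with summed levels of 14755 to 37266 TPM, and the summed lymphocyte markers were at 0.921 to 33.3 TPM. In bulk liver, fewer cells of a type and less RNA per cell cannot be told apart. The labels do not say whether mice were littermates or were processed in batches, so p-values measure the spread between these mice.

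Several libraries stood apart. There were 4 mice under 1500000 reads, DPBS replicates 6 and 7, Control-GalNAc-ASO 20 mg/kg replicate 1 and *Upf3b*-GalNAc-ASO 10 mg/kg replicate 3. The last of these had a median correlation of 0.677 with its group, and its *Upf3b* level of 53.7 TPM was the highest of the *Upf3b*-GalNAc-ASO treated mice. *Upf3b*-GalNAc-ASO 20 mg/kg replicate 2, with 5160411 reads, had the highest level of all 11 immediate early genes measured, genes that respond within minutes to stimulation, and is described further on. Several results that rest on these mice are given with and without them, and others are given with all mice only.

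**Figure D1:**
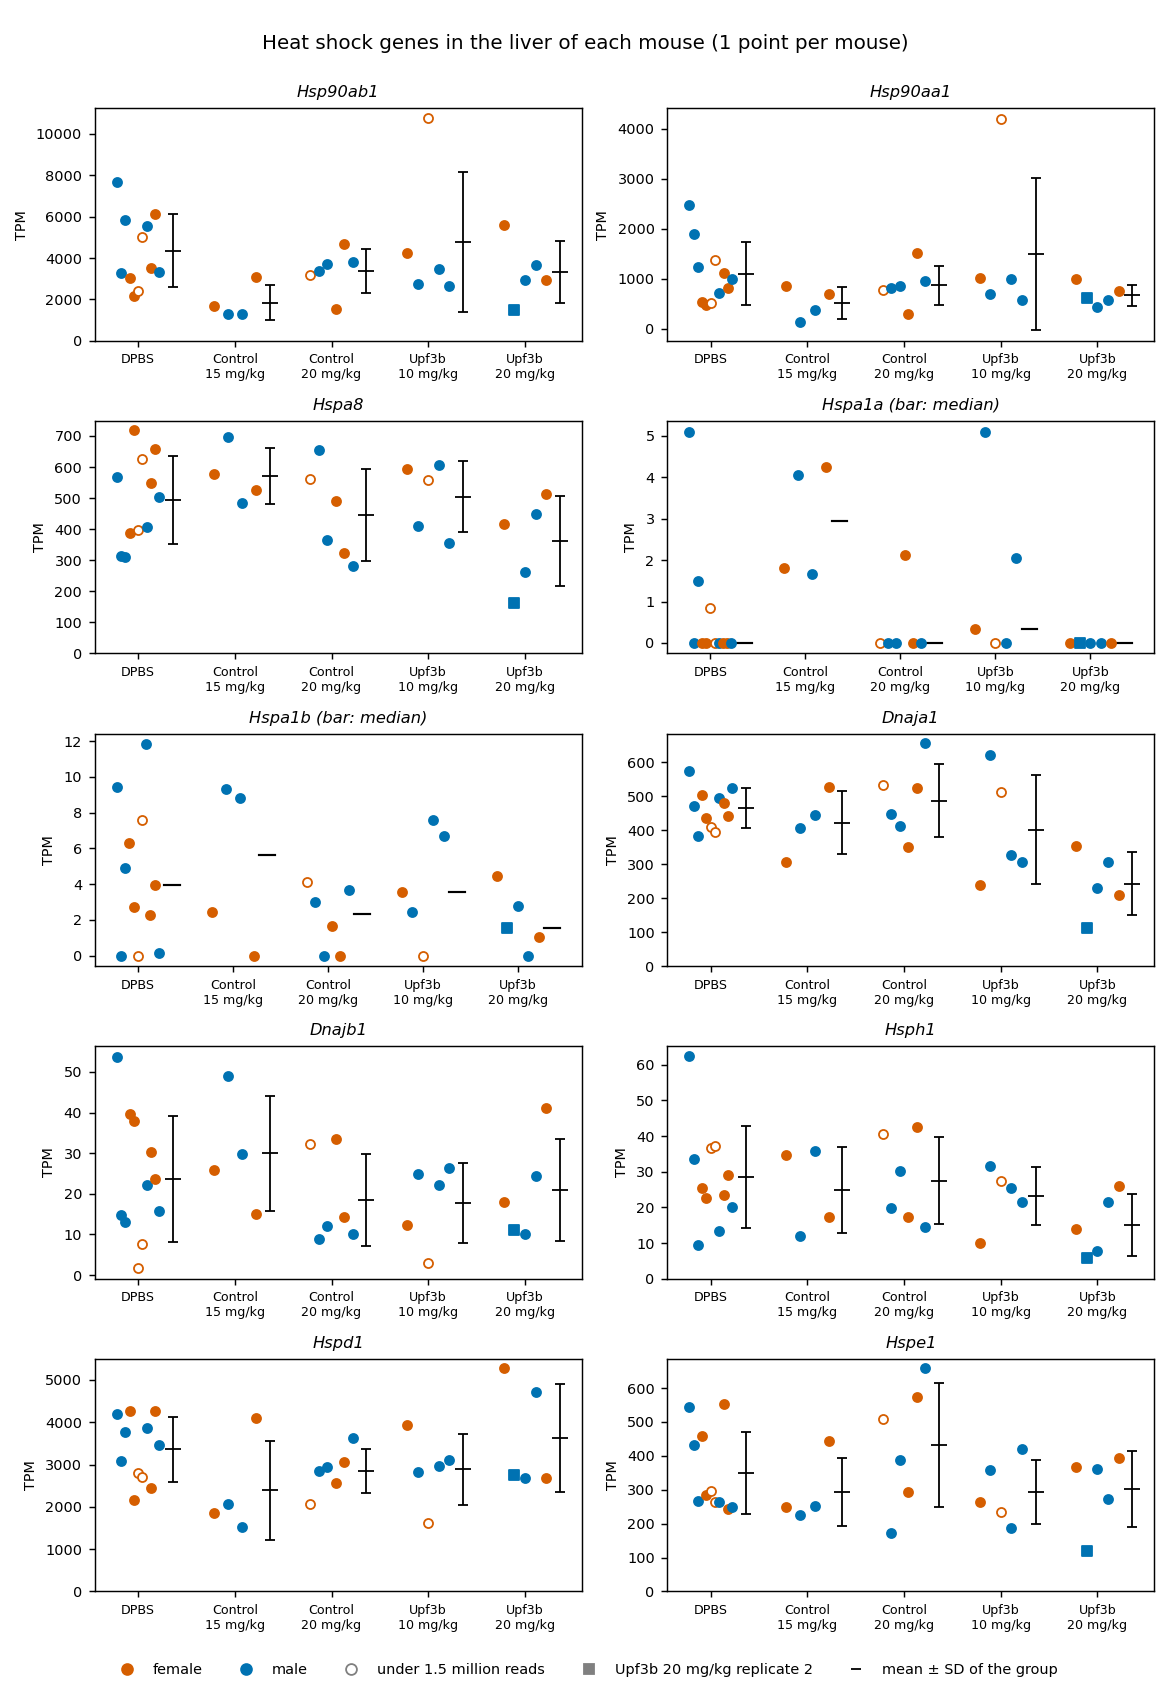
Level of each heat shock gene in the liver of each mouse (TPM, 1 point per mouse) for the 5 groups, with female mice in orange, male mice in blue, mice under 1500000 reads hollow, and a bar for the mean ± SD (the median for *Hspa1a* and *Hspa1b*). The hollow point of the *Upf3b* 10 mg/kg group was the highest of all mice for *Hsp90ab1* and *Hsp90aa1*, and the 5 mice of the *Upf3b* 20 mg/kg group lay below all DPBS mice for *Dnaja1*.

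*Hsp90ab1*, the constitutive cytosolic HSP90 gene (chr17:45567775-45573271, minus strand), was lowest on average with Control-GalNAc-ASO at 15 mg/kg. The 4 mice of that group were at 1677, 1304, 1282 and 3089 TPM, whereas the DPBS mice ranged from 2188 to 7654 with a median of 3516. The ranges overlapped through 1 mouse, replicate 4. In the 20 mg/kg group of Control-GalNAc-ASO the levels ran from 1525 to 4678 TPM with a median of 3538. *Upf3b*-GalNAc-ASO gave 4233, 2747, 10746, 3467 and 2668 TPM at 10 mg/kg, and 5587, 1478, 2959, 3645 and 2957 TPM at 20 mg/kg. The mouse at 10746 TPM was the shallow replicate 3, and the mouse at 1478 TPM was replicate 2 at 20 mg/kg.

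*Hsp90aa1*, the stress-inducible HSP90 gene (chr12:110690605-110702728, minus strand), had the same order of group means. Its levels were 855, 129, 382 and 699 TPM with Control-GalNAc-ASO at 15 mg/kg, and 1007, 685, 4193, 994 and 578 TPM with *Upf3b*-GalNAc-ASO at 10 mg/kg. Replicate 3 was again the highest and all other mice of the 10 mg/kg group lay within the range of the DPBS mice, 469 to 2470.4 TPM with a median of 989. The 20 mg/kg groups overlapped over most of their ranges, with 989, 609, 427, 565 and 758 TPM for *Upf3b*-GalNAc-ASO and 287 to 1518 TPM, median 832, for Control-GalNAc-ASO. The coding sequences of the HSP90 genes were identical at 77.0% of 2163 aligned bases.

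*Hsp90aa1* and *Hsp90ab1* varied together between mice of the same group and sex. After group and sex means were taken out of log2(TPM + 1), their correlation over 31 mice was 0.72, the highest of the 45 pairs among the 10 genes, whose median was 0.15 and range -0.29 to 0.72. Without *Upf3b*-GalNAc-ASO 10 mg/kg replicate 3 it was 0.65 and no longer the highest, since *Hsp90ab1* and *Hspd1* then correlated at 0.68 (0.38 with that mouse). It was 0.77 without 20 mg/kg replicate 2. These correlations describe the libraries, which differ in depth, and carry no test. Within the 11 DPBS mice alone, the log2 levels gave Pearson's r = 0.611 (permutation test, two-sided, p = 0.0475, 0.0951 adjusted over the 2 pairs tested) and Spearman's rho = 0.618 (permutation p = 0.0478, adjusted 0.0957). Without the 2 mice farthest from the median of *Hsp90aa1* r was 0.268 over 9 mice, so the relation in DPBS mice rests on those mice. Over the 9 DPBS mice above 1500000 reads r was 0.527.

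**Figure D2:**
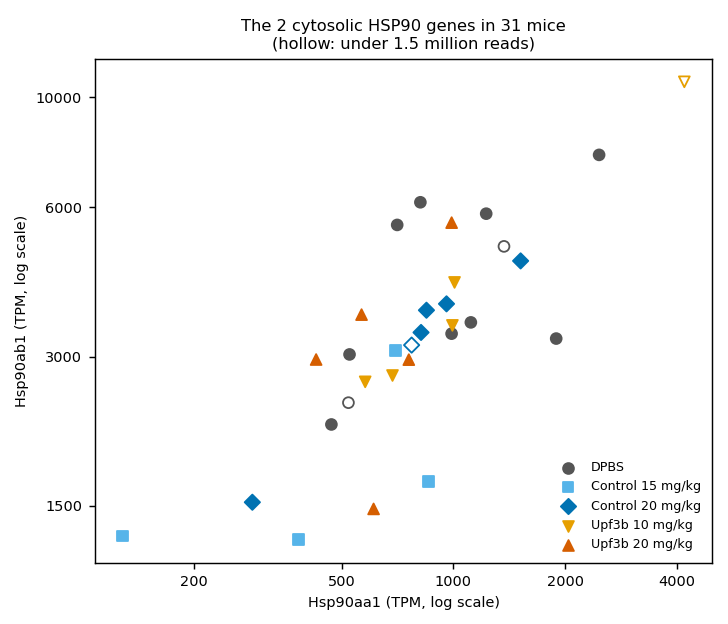
Level of *Hsp90ab1* against *Hsp90aa1* in each of the 31 mice (TPM, both axes on a log scale), with a symbol for each group and mice under 1500000 reads hollow. The mouse at 4193 and 10746 TPM stands at the upper end, and 3 of the 4 mice given Control-GalNAc-ASO at 15 mg/kg lie at or below 1677 TPM of *Hsp90ab1*.

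*Hspa8*, the constitutive HSP70 gene (chr9:40800984-40810087, plus strand), overlapped between all groups. It was at 579, 695, 485 and 528 TPM with Control-GalNAc-ASO at 15 mg/kg and at 310.4 to 720.2 TPM, median 504, with DPBS. With *Upf3b*-GalNAc-ASO it was at 595, 409, 557, 608 and 356 TPM at 10 mg/kg, and at 418, 163, 263, 448 and 514 TPM at 20 mg/kg. The highest mice of every group lay between 514 and 720.2 TPM, and the lowest of all 31 mice was *Upf3b*-GalNAc-ASO 20 mg/kg replicate 2. With Control-GalNAc-ASO at 20 mg/kg the range was 282 to 656 TPM.

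The inducible HSP70 genes had low levels in all groups, and *Hspa1a* was near the floor. It was at 0 in 20 of 31 mice and below 3 reads in 22, and its highest level was 5.11 TPM, or 20.5 reads at most in any mouse. It was above 0 in all 4 mice given Control-GalNAc-ASO at 15 mg/kg, at 1.81, 4.05, 1.65 and 4.24 TPM, and at 0 in all 5 mice given *Upf3b*-GalNAc-ASO at 20 mg/kg, where the floor was 0.576 to 1.47 TPM. The other groups held both kinds of mice. At 10 mg/kg of *Upf3b*-GalNAc-ASO the levels were 0.325, 5.11, 0, 0 and 2.06 TPM. Of the mice given Control-GalNAc-ASO at 20 mg/kg, 1 was at 2.12 TPM and the other 5 at 0, and of the DPBS mice 8 of 11 were at 0 and the highest was at 5.10 TPM. *Hspa1b* was at 0 in 7 mice and reached 11.8 TPM, or 48.0 reads at most in any mouse. It was at 2.45, 9.30, 8.82 and 0 TPM with Control-GalNAc-ASO at 15 mg/kg, at 3.57, 2.43, 0, 7.60 and 6.70 with *Upf3b*-GalNAc-ASO at 10 mg/kg, and at 4.47, 1.54, 2.76, 0 and 1.03 at 20 mg/kg. The DPBS mice covered all of these, from 0 to 11.8 TPM with a median of 3.93. Since reads from the shared coding part may go to either copy, a zero of 1 gene is not a zero of both: no group was without *Hspa1b*.

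*Dnaja1*, which encodes a J-domain partner of HSP70 (chr4:40722150-40737149, plus strand), was lower with *Upf3b*-GalNAc-ASO at 20 mg/kg than in the other groups. Its levels there were 352, 111, 229, 308 and 211 TPM, 242 ± 93.1 (SD, n = 5). The DPBS mice were the tightest group, at 384 to 573 TPM, 465 ± 58.0 (SD, n = 11), and all of them lay above those 5 mice. The mice given Control-GalNAc-ASO at 20 mg/kg ranged from 351 to 657 TPM with a median of 485, so that a single mouse of each group, at 352 and 351 TPM, made the ranges touch. At the lower doses the levels were 239, 623, 513, 328 and 306 TPM with *Upf3b*-GalNAc-ASO at 10 mg/kg and 305, 408, 446 and 529 TPM with Control-GalNAc-ASO at 15 mg/kg, which overlap.

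*Dnajb1*, the stress-inducible J-domain gene (chr8:83608193-83612653, plus strand), was measured from as few as 2 reads. The DPBS mice ranged from 1.67 to 53.7 TPM with a median of 22.2, and the 3 lowest of all mice, at 1.67, 2.94 and 7.60 TPM, were all under 1500000 reads. It was at 26.0, 49.1, 29.8 and 15.0 TPM with Control-GalNAc-ASO at 15 mg/kg, at 12.3, 24.9, 2.94, 22.1 and 26.4 with *Upf3b*-GalNAc-ASO at 10 mg/kg, and at 17.9, 11.1, 10.1, 24.4 and 41.0 at 20 mg/kg. All groups overlapped. *Hsph1*, the HSP110 gene (chr5:149614287-149636376, minus strand), was at 13.8, 5.95, 7.83, 21.5 and 26.1 TPM with *Upf3b*-GalNAc-ASO at 20 mg/kg. The 2 lowest of all mice were in that group, whereas the DPBS mice were at 9.41 to 62.3 TPM (median 25.5) and the mice given Control-GalNAc-ASO at 20 mg/kg at 14.4 to 42.7 TPM (median 25.1). The lower doses gave 10.1, 31.6, 27.4, 25.4 and 21.4 TPM with *Upf3b*-GalNAc-ASO and 34.6, 11.9, 35.8 and 17.3 TPM with Control-GalNAc-ASO.

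*Hspd1* (chr1:55077835-55088243, minus strand) and *Hspe1* (chr1:55088132-55091307, plus strand), whose windows share the stretch of DNA shown at the outset and whose products work together, did not follow the same order of groups. *Hspd1* was at 1859, 2065, 1518 and 4105 TPM with Control-GalNAc-ASO at 15 mg/kg, 3 of these below all 11 DPBS mice (2169 to 4275, median 3468). With *Upf3b*-GalNAc-ASO it was at 3944, 2812, 1613, 2968 and 3118 TPM at 10 mg/kg, and at 5293, 2762, 2682, 4713 and 2678 TPM at 20 mg/kg. The highest of all mice, at 5293 TPM, was in the 20 mg/kg group. *Hspe1* was at 249.9, 226, 252 and 443 TPM with Control-GalNAc-ASO at 15 mg/kg and at 173 to 659 TPM (median 447) at 20 mg/kg. *Upf3b*-GalNAc-ASO gave 264, 358, 235, 187 and 422 TPM at 10 mg/kg and 369, 119, 360.1, 271 and 394 TPM at 20 mg/kg, within the range of the control mice but for replicate 2 at 20 mg/kg. DPBS mice were at 242 to 552 TPM with a median of 283. Between mice of the same group and sex the residuals of *Hspd1* and *Hspe1* correlated at 0.26, against 0.56 for *Dnaja1* and *Hspe1* (0.40 without *Upf3b*-GalNAc-ASO 20 mg/kg replicate 2). Over the 11 DPBS mice *Hspd1* and *Hspe1* gave r = -0.00179 (permutation p = 0.996, adjusted 0.996) and rho = -0.191 (permutation p = 0.579, adjusted 0.579), and r = 0.247 without the 2 farthest mice.

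When the 5 groups were ordered by their mean for each gene, the ranges of neighbouring groups overlapped in all 40 neighbouring pairs. Differences between pairs of groups were then computed by limma on the log2(TPM + 1) scale, adjusted for sex, over all genes whose median reached 5 TPM in 1 or both groups. *Hspa1a* passed that filter in no comparison and *Hspa1b* only in those with Control-GalNAc-ASO at 15 mg/kg, so 8 or 9 of the 10 genes were fitted. A gene is called where its Benjamini-Hochberg adjusted p, over all genes fitted, is under 0.05.

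With *Upf3b*-GalNAc-ASO at 10 mg/kg against Control-GalNAc-ASO at 15 mg/kg, the HSP90 genes differed most, by 1.36 (SE 0.32) for *Hsp90ab1* and 1.58 (SE 0.42) for *Hsp90aa1* on the log2 scale. *Dnajb1* differed by -1.03 (SE 0.46), and the other 6 genes fitted lay between -0.30 (*Hspa1b*, SE 0.70) and 0.35 (*Hspd1*, SE 0.34). Of the 9 genes 0 were called, where 0.295% of all 9166 genes were, and their median was -0.08 beside -0.03 over all genes. Without replicate 3 the *Hsp90ab1* difference was 1.08 (SE 0.23) and the *Hsp90aa1* difference was 1.24 (SE 0.36). Against DPBS, Control-GalNAc-ASO at 15 mg/kg had the difference of opposite sign, -1.24 (SE 0.31) for *Hsp90ab1* and -1.22 (SE 0.48) for *Hsp90aa1*, while *Upf3b*-GalNAc-ASO at 10 mg/kg differed from DPBS by 0.03 (SE 0.33) and 0.19 (SE 0.42). These comparisons share the control or the DPBS mice.

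With *Upf3b*-GalNAc-ASO at 20 mg/kg, *Dnaja1* and *Hsph1* had the largest differences from either control. Against Control-GalNAc-ASO at 20 mg/kg *Dnaja1* differed by -1.07 (SE 0.29) and *Hsph1* by -0.83 (SE 0.42), and 0 of 8 genes were called, where 2.52% of 9376 genes were. Of the 236 genes called there 87 were higher and 149 lower, and with median-of-ratios scaling 150 of 277 were higher and 127 lower, while the median over all genes moved from -0.12 to -0.01. Against DPBS *Dnaja1* differed by -1.02 (SE 0.23) and *Hsph1* by -0.84 (SE 0.40), and 1 of 8 genes, *Dnaja1*, was past the threshold, where 1.13% of 9078 genes were called and 0.837% were called lower. *Dnaja1* was also the 1 of the 8 genes with all treated mice below all DPBS mice, as 0.474% of all genes were. The medians of the 8 genes were -0.29 and -0.43, beside -0.12 and 0.05 over all genes. Without replicate 2 at 20 mg/kg the *Dnaja1* differences were -0.83 and -0.78 and those of *Hsph1* -0.65 and -0.64. The medians of the 8 genes were then -0.14 and -0.20, beside -0.04 and 0.12 over all genes.

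The other comparisons with DPBS gave smaller values. *Upf3b*-GalNAc-ASO at 10 mg/kg had 0 of 8 genes called (0.376% of 9032 genes), with values from -0.43 (*Dnajb1*, SE 0.57) to 0.19 (*Hsp90aa1*). Control-GalNAc-ASO had 0 of 9 called at 15 mg/kg and 0 of 8 at 20 mg/kg, where 0% of 8971 and 0% of 9140 genes were called by limma, and 644 and 905 genes had an unadjusted p under 0.05. At 15 mg/kg *Hspd1* differed from DPBS by -0.57 (SE 0.24) and *Hspa8* by 0.26 (SE 0.23), and at 20 mg/kg all 8 genes lay between -0.35 (*Hsp90ab1*, SE 0.24) and 0.25 (*Hspe1*, SE 0.26). The median over all genes at 20 mg/kg was 0.15, and 0.05 with median-of-ratios scaling.

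**Figure D3:**
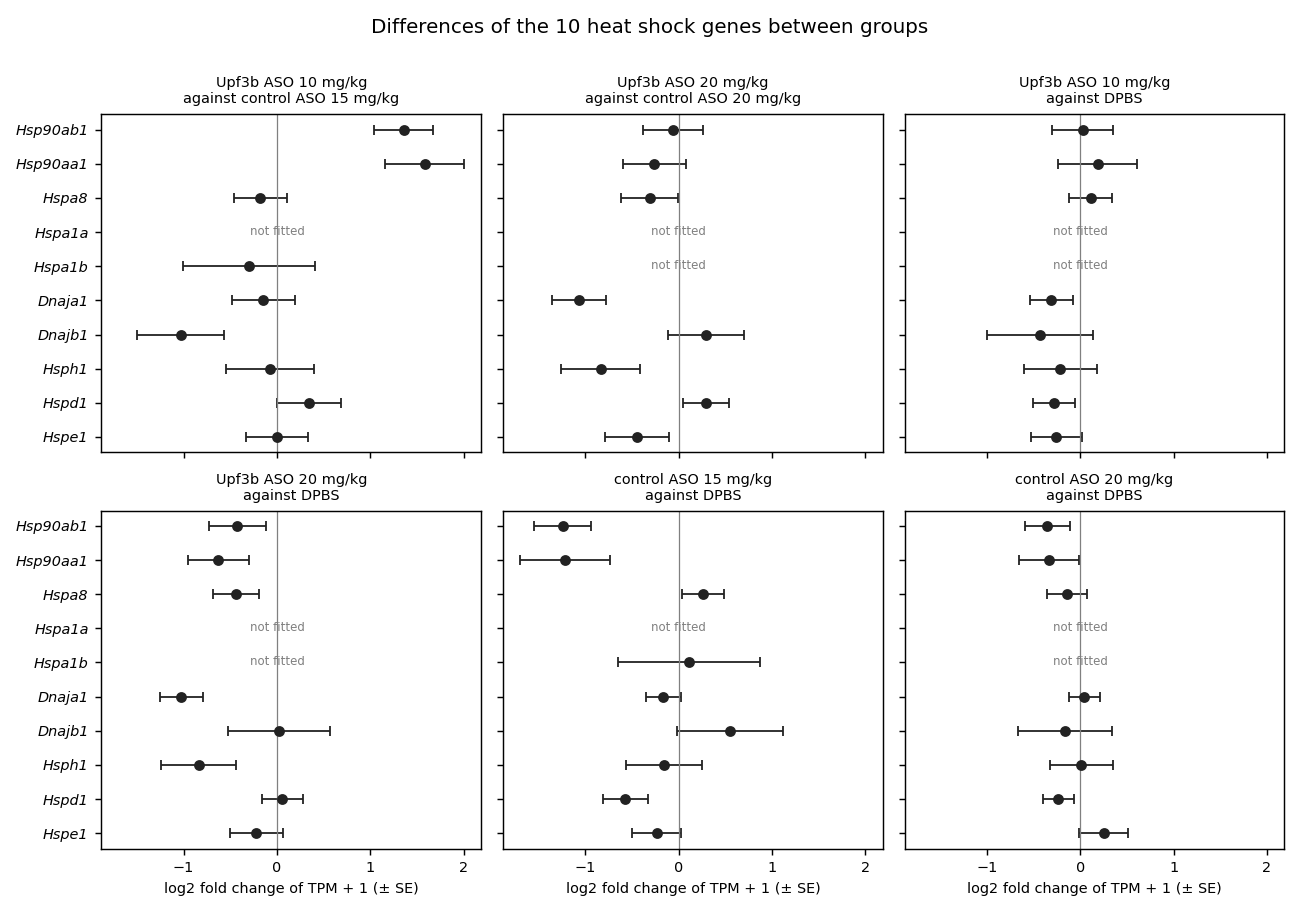
Difference of each heat shock gene between groups (log2 fold change of TPM + 1, point, with its SE as a bar) in the 6 comparisons, with genes under the level filter marked as not fitted. The HSP90 genes stand at 1.36 and 1.58 in the first panel and at -1.24 and -1.22 for Control 15 mg/kg against DPBS, and *Dnaja1* at -1.07 and -1.02 in both comparisons of *Upf3b* 20 mg/kg.

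Co-chaperones and related families, 86 further genes in 8 lists, were tested in the same fits. These lists, and those of cell markers, were also chosen with earlier results of these data known, which limits what their p-values can show. They were 15 HSP90 co-chaperones, 15 other HSP70 and HSP110 genes and exchange factors, 13 other J-domain genes, 7 small heat shock genes, 14 genes of the TRiC chaperonin and prefoldin, 12 mitochondrial chaperones and proteases, 5 heat shock factors and regulators, and 5 ER paralogs. Of these, 69 to 71 passed the filter, and limma called 0 of 70 for *Upf3b*-GalNAc-ASO at 10 mg/kg against Control-GalNAc-ASO at 15 mg/kg (11 at an unadjusted p under 0.05), 0 of 71 at 20 mg/kg (20 at an unadjusted p under 0.05), and 0 of 69 for each of *Upf3b*-GalNAc-ASO at 10 mg/kg and Control-GalNAc-ASO at 15 mg/kg against DPBS (4 each at an unadjusted p under 0.05). For Control-GalNAc-ASO at 20 mg/kg against DPBS it called 0 of 69 (6 at an unadjusted p under 0.05). Over all genes, in the same order, 1446 of 9166, 1751 of 9376, 747 of 9032, 644 of 8971 and 905 of 9140 had a limma unadjusted p under 0.05. Over the 70 genes at 10 mg/kg the median was -0.06, and 2 of them, *Ppp5c* and *Hsbp1*, named because of their values, lay below all control mice, where 2.73% of all genes did. The medians of the 8 lists ran from -0.69 (heat shock factors and regulators, 3 genes fitted) to 0.36 (other J-domain genes, 10 fitted) in that comparison, and at 20 mg/kg from -0.61 (small heat shock genes, 2 fitted) to 0.73 (heat shock factors and regulators, 3 fitted), beside -0.03 and -0.12 over all genes. The 5 ER paralogs had medians of -0.60 and -0.41.

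*Hspa4*, an HSP110 relative that exchanges nucleotide on HSP70, fell with *Upf3b*-GalNAc-ASO at 20 mg/kg against DPBS and was the 1 of 69 genes called in that comparison. Over all 9078 genes 1.13% were called and 0.837% were called lower. A limma unadjusted p under 0.05 was reached by 11 of the 69 genes and by 1081 of the 9078. The levels of *Hspa4* were 218, 63.4, 274, 194 and 234 TPM, below all DPBS mice, which were at 279 to 563 TPM with a median of 355. Over all genes 0.474% lay below all DPBS mice. The difference was -1.13 on the log2 scale (SE 0.28, limma adjusted p = 0.0484, lower in 5 of 5 mice). The call rested on single mice and settings, since without replicate 2 the difference was -0.77 (limma adjusted p = 0.0945). With Control-GalNAc-ASO at 20 mg/kg, *Hspa4* was at 195 to 640.2 TPM (median 375), and the difference of -0.98 (SE 0.36) had a limma adjusted p of 0.148.

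Markers of other liver cells were compared in the same mice. Of the Kupffer, stellate, cholangiocyte, lymphocyte and erythroid markers fitted, limma called 0 in each comparison between groups. With *Upf3b*-GalNAc-ASO at 20 mg/kg all 4 Kupffer markers fitted were above DPBS (median 0.61). The summed cholangiocyte markers reached 198 TPM (median 21.0) in that group. The summed erythroid markers reached 5348 TPM (median 1360) with Control-GalNAc-ASO at 20 mg/kg. The summed level of the 5 endothelial markers, all expressed, was 1535 to 2210 TPM with *Upf3b*-GalNAc-ASO at 20 mg/kg, 591 to 1643 TPM with Control-GalNAc-ASO at 20 mg/kg and 583 to 2378 TPM with DPBS. Of these, limma called *Pecam1*, 1.27 higher on the log2 scale than with Control-GalNAc-ASO (SE 0.28, adjusted p = 0.0201), and 0 of 5 against DPBS (1 at an unadjusted p under 0.05, beside 1081 of all 9078 genes). *Pecam1* made up most of the sum, at 1745 ± 208 TPM (SD, n = 5), and the other 4 markers had differences of -0.72 to -0.06 from Control-GalNAc-ASO. The call of *Pecam1* was lost with no level filter, with the replicate block, and without *Upf3b*-GalNAc-ASO replicate 6 or Control-GalNAc-ASO replicate 3. At the lower dose limma called 1 of the 6 hepatocyte markers, *Tat*, which encodes tyrosine aminotransferase, with a log2 difference of -1.99 from Control-GalNAc-ASO (SE 0.34, adjusted p = 0.0237). All 6 differences were below 0, with a median of -0.35. The mean level of *Tat* was 736 TPM in that control group, 321 with DPBS and 284 with Control-GalNAc-ASO at 20 mg/kg. It was 179 TPM with *Upf3b*-GalNAc-ASO at 10 mg/kg. Against DPBS limma called 0 of the 6 hepatocyte markers for *Upf3b*-GalNAc-ASO at 10 mg/kg, with differences of -0.55 to -0.13. The call of *Tat* was lost with no level filter, without *Upf3b*-GalNAc-ASO replicates 2 or 5 and without any 1 of the Control-GalNAc-ASO mice. The part of these in the results for the heat shock genes was not tested.

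*Upf3b*-GalNAc-ASO 20 mg/kg replicate 2 combined the highest levels of immediate early genes with low levels of several heat shock genes. Its 11 immediate early genes summed to 4281 TPM, 11.1-fold above the highest of the other 30 mice, which were at 93.8 to 387 TPM. *Junb* was at 2495 TPM (254 at most elsewhere), *Jun* at 804 (38.4), *Egr1* at 433 (47.2) and *Fos* at 45.1 (2.73). The metallothionein genes *Mt1* and *Mt2*, which bind metals and were looked at after the immediate early genes had been seen, were at 3867 and 20803 TPM and at most 312 and 1084 in the other mice. In the same liver 4 of the 10 heat shock genes were the lowest of all 31 mice, *Hspa8* at 163 TPM (others at least 263), *Dnaja1* at 111 (211), *Hsph1* at 5.95 (7.83) and *Hspe1* at 119 (173). How many of all genes were the lowest in this mouse was not counted. This library had 7986 genes at 5 TPM or more, where the 31 libraries had 7891 to 9107 (median 8542). *Hspa1a* was at 0 and *Hspa1b* at 1.54 TPM, and *Hspd1* at 2762 TPM was within the range of the others. *Hspa4* at 63.4 TPM (others at least 194) and *Stip1*, the co-chaperone that links HSP70 and HSP90, at 33.0 TPM (41.8) were the lowest as well. The exchange factor gene *Bag3*, at 125 TPM, was within the range of the others (52.9 to 171, median 103). So was the small heat shock gene *Hspb1*, at 20.4 TPM (4.14 to 111, median 36.2). These are values of 1 mouse, and no test can be made of them.

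**Figure D4:**
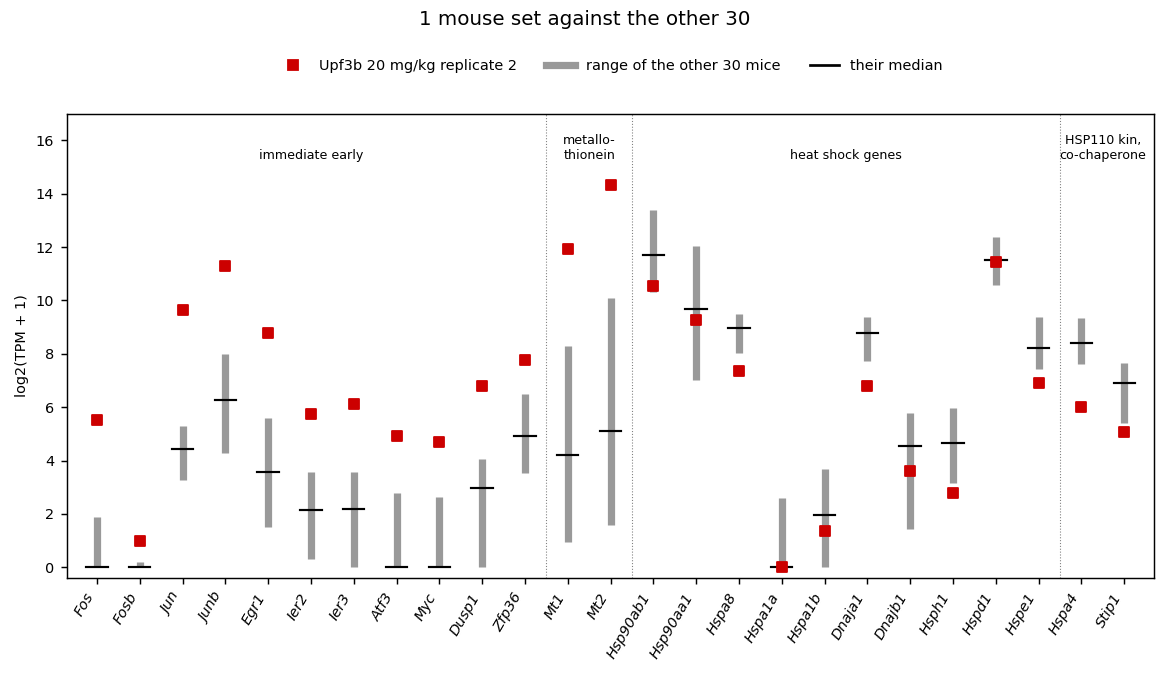
Level of immediate early, metallothionein and heat shock genes (log2(TPM + 1)) in *Upf3b* 20 mg/kg replicate 2, red squares, with the range of the other 30 mice as a grey bar and their median as a black line. The squares lie above the bars for all 11 immediate early genes and both metallothionein genes, and below them for *Hspa8*, *Dnaja1*, *Hsph1*, *Hspe1*, *Hspa4* and *Stip1*. *Bag3* and *Hspb1*, which lay within the range of the other mice, are not drawn.

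Sex was not used to choose the genes, and males were compared with females in the 11 DPBS mice and, with the group as a covariate, in the 20 ASO-treated mice. The HSP90 genes pointed in opposite directions in these sets. *Hsp90aa1* in DPBS mice was at 802 ± 370.3 TPM (SD, n = 6) in females and 1457 ± 717 (n = 5) in males, a log2 difference of 0.84 (SE 0.34, limma adjusted p = 0.425). In ASO-treated mice it was at 1231 ± 1157 TPM (n = 9) in females and 636 ± 262 (n = 11) in males, a difference of -0.81 (SE 0.32, limma adjusted p = 0.242). *Hsp90ab1* differed by 0.48 (SE 0.29, limma adjusted p = 0.590) and -0.52 (SE 0.25, limma adjusted p = 0.353). The difference between these sex differences, added after the values had been seen, was -1.65 (SE 0.53) for *Hsp90aa1* and -1.003 (SE 0.41) for *Hsp90ab1*. It sets treatment groups against each other, so it is a description and no p-value is printed for it. None of the 8 heat shock genes fitted was called in either set or for the difference between them (1, 2 and 2 at an unadjusted p under 0.05, beside 887 of 8998, 1245 of 9109 and 1077 of 9519 genes), where limma called 1.41% of 8998, 1.93% of 9109 and 0% of 9519 genes. Without the mice under 1500000 reads the 3 values of *Hsp90aa1* were 0.94, -0.61 and -1.55. In ASO-treated mice *Hsp90aa1* was called in 1 of 24 alternatives, over which its limma adjusted p ran from 0.0382 to 0.462. That was without Control-GalNAc-ASO 20 mg/kg replicate 4, a female with 287 TPM of *Hsp90aa1*. The difference was then -1.05 (limma adjusted p = 0.0382), and 165 of 9115 genes were called.

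Of the other lists, *Fkbp5*, an HSP90 co-chaperone of the glucocorticoid receptor, was lower in males in both sets. In DPBS mice it was at 95.3 ± 22.5 TPM (SD, n = 6, 64.8 to 127) in females and 36.8 ± 22.5 (n = 5, 17.9 to 72.7) in males, and it fell by 1.499 on the log2 scale (SE 0.34, limma adjusted p = 0.0282), 1 of 69 genes called. That call held in 6 of 15 alternatives, and was lost with no level filter, without the mice under 1500000 reads and without any 1 of 7 mice. In ASO-treated mice it was at 84.6 ± 33.1 TPM (n = 9) in females and 38.1 ± 15.4 (n = 11) in males, a difference of -1.105 (SE 0.23, limma adjusted p = 0.00564). The 2 sets are different mice, and 2 of 70 genes were called in the second. The other was *Clpb*, a mitochondrial disaggregase, at 51.1 ± 33.1 TPM (n = 9) in females and 23.7 ± 12.4 (n = 11) in males, a difference of -1.12 (SE 0.27, limma adjusted p = 0.0229), and -0.96 (limma adjusted p = 0.0823) without the mice under 1500000 reads. In DPBS mice *Clpb* ranged from 0.836 to 58.2 TPM in females (median 26.5) and from 24.3 to 56.6 TPM in males (median 36.1). That was a difference of 0.84 (SE 0.69, limma adjusted p = 0.689). The female at 0.836 TPM, the shallow DPBS replicate 6, had 1 read of *Clpb*, below the floor. Among markers of cell types, limma called *Alb* lower in males in both sets (-0.92 and -0.70). The 6 hepatocyte markers were all below 0 in DPBS mice (median -0.44), and 2 were above and 4 below 0 in ASO-treated mice (median -0.03, highest 0.58). *Alas2* was the 1 of 5 erythroid markers called, and was higher in males (3.02 and 2.08), whereas the other 4, the globin genes, had values below 0 in both sets (medians of the 5 genes -0.58 and -0.51). The summed erythroid markers were at 791 to 1908 TPM in females and 706 to 1994 in males given DPBS, and at 1191 to 5348 and 732 to 2185 TPM in those given an ASO. The part of these in the sex differences was not tested.

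**Figure D5:**
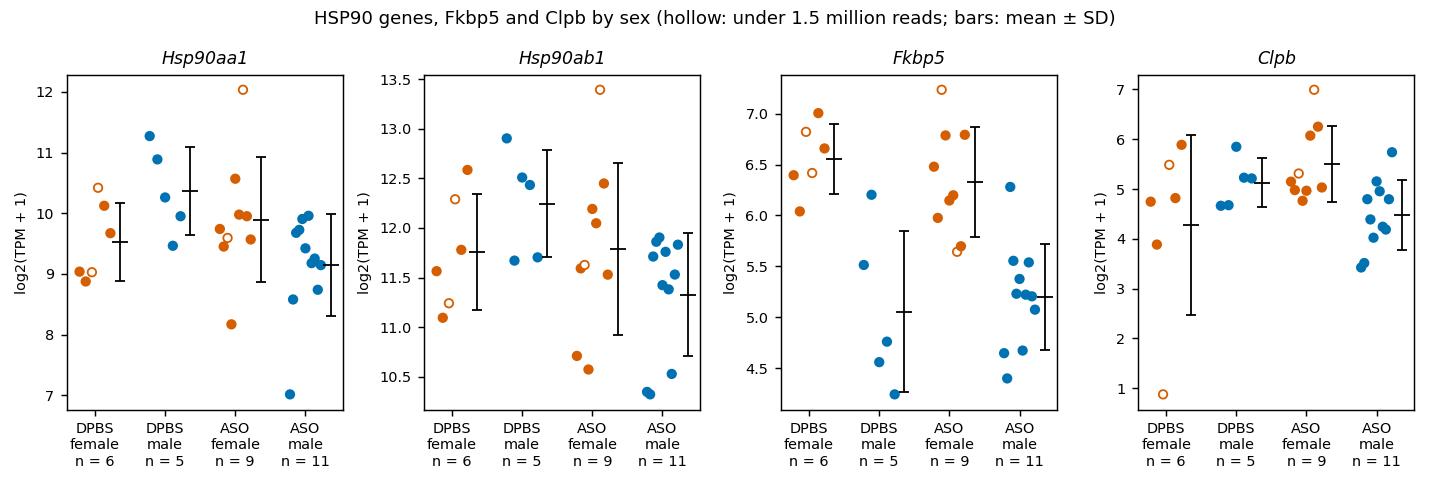
Level of *Hsp90aa1*, *Hsp90ab1*, *Fkbp5* and *Clpb* (log2(TPM + 1), 1 point per mouse, bars for the mean ± SD) in female and male mice given DPBS or an ASO, with mice under 1500000 reads hollow. *Fkbp5* was lower in males in both sets, by 1.499 and 1.105 on the log2 scale, and *Hsp90aa1* was higher in males with DPBS and lower in males with an ASO.

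The 10 genes did not vary as 1 block. Of the 45 pairs, 2 had a residual correlation above 0.5 and 14 were below 0. The mean of the 10 standardised residuals was lowest, at -1.24, in *Upf3b*-GalNAc-ASO 20 mg/kg replicate 2 and highest, at 1.54, in DPBS replicate 1. Of the 8495 other genes whose median over all mice was 5 TPM or more, the 10 whose residuals correlated most with it over the 31 mice included *Mcm10* (0.72), *Stip1* (0.69), *Mterf4* (0.69), *Ccnd1* (0.68), *Baz1b* (0.66), *Orai1* (0.66), *Apol7a* (0.64), *Timm44* (0.64) and *Zbtb12* (0.63). These are descriptions over mice that share differences in depth, and 3 of those 10 were among the nearest 10 without *Upf3b*-GalNAc-ASO 20 mg/kg replicate 2 and 6 without 10 mg/kg replicate 3. *Stip1* was the 1 gene of the chaperone lists among the 10.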

How the data were processed

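Liver RNA of 31 mice was sequenced in 5 groups taken from the sample labels. The authors quantified reads with Salmon 0.7.2 against Ensembl build 81 cDNA (GRCm38, GRCm38.p4 in the submitters' processing notes) and deposited TPM per gene symbol. The labels name a QuantSeq 3′ kit and the study's methods a Tru-seq protocol. Of 31198 symbols, 26 turned into dates were left out. The most common positive value was taken as 1 read, and 54.7%, 82.8% and 79.0% of values of genes in the shortest, middle and longest of 3 equal classes of transcript length were whole reads within 0.02. No test for counts was used, since values shared between transcripts are not whole. The study's own test, which models variance from reference cohorts, was not repeated. Differences were fitted with limma 3.58.1 in R 4.3.3 (eBayes with a trend and robust variances) on the log2(TPM + 1) scale, adjusted for sex, using only mice of the groups compared and genes whose median reached 5 TPM in 1 or both groups. P-values were Benjamini-Hochberg adjusted over all genes fitted. Permutations (100000), tables and figures used Python 3.11.15, numpy 2.4.6, pandas 2.3.3, scipy 1.17.1 and matplotlib 3.10.9. The limma step was tested on simulated data. Promoter windows came from RefSeq (GRCm38.p6), gene positions and transcripts from GENCODE M21 (GRCm38). The 10 heat shock genes and all other lists were chosen with earlier results of these data known. Genes of other lists are named where called in a comparison, at most 4 per list, and the 10 genes most like the heat shock genes by residual correlation are named, except 1 that is not reported here. Samples given *Upf1*-GalNAc-ASO were not analysed here. Doses were given every 5 days per the study's methods and the labels' protocol, whereas the labels' dose entry calls them weekly. Alternatives were a pseudocount of 0.5, no level filter, median-of-ratios scaling, no sex covariate, a replicate block, each mouse left out in turn and, added after the data were seen, leaving out the 4 mice under 1500000 reads.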

Additional observations from a re-analysis of the deposited data

Results flagged for a closer look

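In groups of 4 to 10 mice, a heat shock gene was marked where the highest or lowest mouse lay farther from the others than Dixon's 95% critical value allows, and 4 of the 39 sets of values were marked. About 1 in 20 sets is marked by chance, and since the genes were chosen with these values known the marks only describe them. *Hsp90ab1* at 10746.5 TPM and *Hsp90aa1* at 4192.7 TPM in *Upf3b*-GalNAc-ASO 10 mg/kg replicate 3 stood above 4233 and 1007 TPM in the nearest mouse of the group, by 0.806 and 0.881 of the group's range. That mouse had 1012526 reads, the fewest of all. *Hspa1a* was at 2.12 TPM in Control-GalNAc-ASO 20 mg/kg replicate 4 and at 0 in the other 5 mice of the group, so that any value above 0 would have been marked. *Hspe1* was at 442.8 TPM in Control-GalNAc-ASO 15 mg/kg replicate 4, where the nearest mouse was at 252 TPM.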

How the results depend on the processing

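No difference changed sign while called, and the cause of the changes given here was not tested. Counts of the 10 heat shock genes called between groups are descriptions, since their levels were known when they were chosen. For *Upf3b*-GalNAc-ASO at 10 mg/kg against Control-GalNAc-ASO at 15 mg/kg, 27 genes were called, and 17 with a pseudocount of 0.5, 5 with no level filter, 91 without the mice under 1500000 reads, 10 with no sex covariate, 95 with the replicate block and 2 to 431 when 1 mouse was left out (431, 14, 91 and 13 without *Upf3b*-GalNAc-ASO replicates 1, 2, 3 and 5, and 7, 6, 2 and 4 without Control-GalNAc-ASO replicates 1 to 4). Of the heat shock genes 0 were called. Without the mice under 1500000 reads 1 was (*Hsp90ab1*), where 91 of 9203 genes were called. With the replicate block 2 were (*Hsp90ab1*, 1.41, and *Hsp90aa1*, 1.65), where 95 of 9286 genes were. When 1 mouse was left out 0 to 2 were. There were 2 without *Upf3b*-GalNAc-ASO replicate 1, where 431 of 9254 genes were called, and 1 without replicate 3. Of the other chaperone genes 0 to 2 were called (*Dnajc2* and *Clpb*, named for their values, without *Upf3b*-GalNAc-ASO replicate 1). Over 15 alternatives *Hsp90ab1* differed by 1.08 to 1.56 and *Hsp90aa1* by 1.21 to 1.98.

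For the groups at 20 mg/kg 236 genes were called, 67 with no level filter, 143 without the mice under 1500000 reads, 45 with the replicate block and 70 to 270 when 1 mouse was left out (101 and 144 without *Upf3b*-GalNAc-ASO replicates 1 and 6, and 143, 70 and 134 without Control-GalNAc-ASO replicates 1, 3 and 5). Of the heat shock genes 0 were called, and 1, *Dnaja1*, with no sex covariate (where 232 of 9376 genes were called). When 1 mouse was left out 0 to 1 were, each time *Dnaja1*. That was without *Upf3b*-GalNAc-ASO replicate 5 (209 of 9417 genes called) or Control-GalNAc-ASO replicate 4 (213 of 9349). Of the other chaperone genes 0 were called, 1 with median-of-ratios scaling (*Cct7*) and 0 to 1 when 1 mouse was left out (*Cct7* or *Dnajb11*, named for their values). Against DPBS, *Upf3b*-GalNAc-ASO at 20 mg/kg had 103 genes called, 42 with the replicate block and 56 to 114 when 1 mouse was left out (56 without replicate 6). The number of heat shock genes past the threshold, a description only, was 0 with the block (42 of 9177 genes called) and without replicate 6 (56 of 9082). It was 0 to 1 when 1 mouse was left out. The call of *Hspa4* was lost with a pseudocount of 0.5, with no filter and with the block (0 each), and without replicates 1, 2, 5 or 6 (0 to 1 genes of the lists called). *Upf3b*-GalNAc-ASO at 10 mg/kg had 34 genes called against DPBS and 9 with the block. Control-GalNAc-ASO at 15 mg/kg had 0, and 2 with no filter or with the block, and at 20 mg/kg 0 to 2 when 1 mouse was left out (2 without replicate 2, 1 without replicate 5). Between sexes *Fkbp5* in DPBS mice was not called with no filter or without the mice under 1500000 reads (0 each, and 0 to 1 when 1 mouse was left out, lost without replicates 3, 4, 6, 8, 9, 10 or 11), but was called in all alternatives run in ASO-treated mice. *Clpb* there was lost without any 1 of the mice of Control-GalNAc-ASO at 15 mg/kg, without *Upf3b*-GalNAc-ASO 10 mg/kg replicate 3 or 20 mg/kg replicate 1, and without the mice under 1500000 reads (1 of the lists called, and 1 to 2 when 1 mouse was left out), and 0 to 1 heat shock genes were called. The genes called by sex in ASO-treated mice were 79 higher and 97 lower in males, and 95 and 73 with median-of-ratios scaling. The genes nearest the heat shock genes shared 6 and 3 of 10 without the mice named in the text. Mice with the same replicate number correlated at -0.08 to 0.06 on average after group means were removed, so the numbers are not taken as pairs. Genes of few reads, *Hspa1a*, *Hspa1b* and *Dnajb1* among them, are limited by depth.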
